A study of Mus musculus with 14 samples.

Results

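A set of 10 genes used as markers of alveolar macrophages was followed through RNA sequencing of mouse lung tumor nodules. The 10 genes are Marco, Mrc1, Olr1, Pparg, Fabp4, Fabp5, Chil3, Ear2, Krt79 and Atp6v0d2, taken by symbol from a count table of 55291 genes. All 10 were found and all 10 passed the filter on low counts, as did 17933 genes in total. The nodules came from C57BL/6 mice with the genotype HER2 Exon20YVMA, an in-frame insertion in the tyrosine kinase domain of HER2 that occurs in human lung adenocarcinoma. The labels give no promoter or cell type that drives the allele, no age and no dose.

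The deposited data hold 14 libraries of total RNA from snap-frozen nodules, in 5 groups that share this genotype and strain. Of these, 2 libraries came from nodules under long-term vehicle. Groups of 3 libraries each came from long-term mobocertinib (TAK-788, an oral inhibitor of EGFR and HER2 exon 20 mutants), T-DM1 (trastuzumab emtansine, an antibody against HER2 that carries a microtubule poison), and both agents in combination. A further 3 libraries, called resistant here, came from nodules that had become resistant under mobocertinib given alone. Library numbers only name a library, and the labels do not say that each came from its own mouse, so p-values measure the spread between these samples, which may be partly technical. All groups held lung epithelial transcripts, with Epcam at 168 to 435 CPM (counts scaled by library size and TMM factors) and the lung transcription factor gene Nkx2-1 at 75.2 to 224 CPM.

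Alveolar macrophages live on the air side of the alveolus, where they take up spent surfactant, dust and microbes. Their identity depends on GM-CSF, made largely by alveolar type 2 cells, which signals through its receptor to switch on the nuclear receptor PPARG, and PPARG in turn drives genes of lipid uptake, binding and export. Other macrophages of the lung, in the interstitium and in tumors, run on other signals and carry other markers, such as complement C1q.

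In RNA makeup, vehicle differed from the rest of the series. Totals were similar, 19344015 to 31287261 counts a library. The TMM factors were 0.677 and 0.542 in vehicle against 0.988 to 1.23 in the other libraries. Messenger RNAs shorter than 1 kb took 31.3% and 36.9% of all counts in vehicle and 8.18% to 14.4% elsewhere. Fabp4 (transcript of 896 bases), Fabp5 (987 bases) and Ear2 (719 bases) fall in that short class, while Marco (1925), Olr1 (3572) and Mrc1 (5374) do not. How far this makeup contributed to each difference from vehicle was not tested directly, but values from a fit with offsets for length and GC content (offset fit below) are given beside Mrc1, Fabp4, Fabp5, Chil3, Ear2 and Atp6v0d2.

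Together the 10 genes were a minor but variable part of each library. They took 0.702% and 0.516% of counts in vehicle and 0.0542% to 0.424% in the other 12 libraries. Chil3 alone gave 54.6% to 87.1% of their summed CPM. Per transcript length, the order by mean TPM over 14 libraries was Chil3 (1368 TPM), Fabp5 (218), Ear2 (161), Fabp4 (68.1), Atp6v0d2 (39.6), Mrc1 (16.8), Marco (13.0), Pparg (11.3), Olr1 (2.29) and Krt79 (1.39). The ranges of neighbors in this order overlapped over libraries, down to Chil3 (279.8 to 3805 TPM) and Fabp5 (60.0 to 430.2 TPM), which met only at their ends. No exon of the 10 genes overlapped an exon of another gene in the annotation. The Chil3 transcript is 94.3% identical to Chil4 and that of Ear2 96.4% to Ear1, so the counts of these 2 genes are uncertain wherever reads could be split between copies.

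Promoter sequences are shown for 4 members that stand for the range of behavior described below: the receptors Marco, Mrc1 and Olr1, and the secreted lectin gene Chil3. Each is the 250 bases before the RefSeq start in build GRCm38.p6, 5′ to 3′ on the gene's strand. Capitals mark 2 short motifs on either strand, the core GAGGAA (or TTCCTC) bound by the myeloid factor PU.1 and the nuclear receptor half-site AGGTCA (or TGACCT) that PPARG dimers use in pairs.
Marco, chr1:120505025-120505274, minus strand: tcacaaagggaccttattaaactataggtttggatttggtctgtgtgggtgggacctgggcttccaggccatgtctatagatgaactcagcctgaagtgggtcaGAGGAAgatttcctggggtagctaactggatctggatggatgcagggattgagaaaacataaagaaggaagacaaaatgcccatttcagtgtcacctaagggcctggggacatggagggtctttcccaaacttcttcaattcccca
Mrc1, chr2:14229164-14229413, plus strand: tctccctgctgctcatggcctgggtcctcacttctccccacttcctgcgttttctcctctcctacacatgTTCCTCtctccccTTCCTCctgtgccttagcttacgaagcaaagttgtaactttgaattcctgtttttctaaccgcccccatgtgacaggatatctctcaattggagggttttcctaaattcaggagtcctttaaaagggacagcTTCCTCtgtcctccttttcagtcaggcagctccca
Olr1, chr6:129507166-129507415, minus strand: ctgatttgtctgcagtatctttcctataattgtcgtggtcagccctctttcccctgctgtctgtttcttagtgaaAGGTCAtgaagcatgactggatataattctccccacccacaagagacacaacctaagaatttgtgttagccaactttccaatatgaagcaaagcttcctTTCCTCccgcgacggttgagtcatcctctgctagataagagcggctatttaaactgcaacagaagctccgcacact
Chil3, chr3:106167565-106167814, minus strand: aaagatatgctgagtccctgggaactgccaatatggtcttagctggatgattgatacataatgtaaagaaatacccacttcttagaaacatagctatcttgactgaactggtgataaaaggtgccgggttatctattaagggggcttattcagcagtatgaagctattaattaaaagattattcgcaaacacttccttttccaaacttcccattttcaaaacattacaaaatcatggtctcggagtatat
The first base of a motif lay 146 bases before the start in Marco, 180, 167 and 35 bases before it in Mrc1, and 175 (half-site) and 76 (PU.1 core) bases before it in Olr1. The RefSeq table holds 9 windows for 7 members, 3 of them for Pparg and 1 for each of the others. The PU.1 core was present in 4 of the 9 (1 each of Marco, Mrc1, Olr1 and Pparg) and the half-site in 3 of the 9 (1 of Olr1 and 2 of Pparg). Windows of the same length held the PU.1 core in 23.3% and the half-site in 14% of 32851 promoters. Chil3, Ear2 and Krt79 had neither string of letters in this window. No promoter entry was found for Fabp4, Fabp5 and Atp6v0d2.

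Against vehicle, members were called in the lower direction alone, by edgeR's quasi-likelihood test with Benjamini-Hochberg adjustment over all 17933 genes (adjusted p below 0.05). Under mobocertinib 3 of 10 members fell (Fabp4, Fabp5 and Mrc1) and 0 rose, where 16.1% of all genes tested fell and 16.8% rose. Under T-DM1 5 fell (Fabp4, Fabp5, Mrc1, Chil3 and Atp6v0d2) and 0 rose, against 14.9% and 16.7% of all genes. In combination 6 fell (the same 5 and Pparg) and 0 rose, against 17.4% and 17.6%. In resistant nodules 5 fell (Fabp4, Fabp5, Chil3, Atp6v0d2 and Pparg) and 0 rose, against 19% and 22%. All 4 comparisons use the same 2 vehicle libraries, so they do not repeat one another.

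The members' median log2 fold change was −2.10 under mobocertinib, −2.09 under T-DM1, −2.61 in combination and −2.28 in resistant nodules. The medians over all genes tested were 0.09, 0.18, 0.08 and 0.18 in the same order. In the offset fit the members' medians were −1.26, −1.21, −1.51 and −1.76, where those of all genes were −0.040 to 0.049. From the deposited TPM values they were −0.53, −0.86, −0.78 and −0.91, where those of all genes were 1.11 to 1.27. All libraries of the group lay below both vehicle libraries for 8, 7, 8 and 8 members, where 28.3%, 26%, 29.9% and 25.6% of all genes did so. Marco and Krt79 overlapped vehicle in each comparison, and Ear2 did so under T-DM1 as well. These counts are of TMM-normalized CPM. In the deposited TPM values Fabp5 was the member whose 12 other libraries all lay below both vehicle libraries, and each of the other 9 overlapped vehicle in at least 1 library. In bulk nodules, fewer alveolar macrophages and less of each RNA per macrophage cannot be told apart. Of the 19 calls, 10 remained when each library of the 2 groups compared was left out in turn: those of Fabp4 and Fabp5 in all 4 comparisons and those of Chil3 in combination and resistant nodules.

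**Figure D1:**
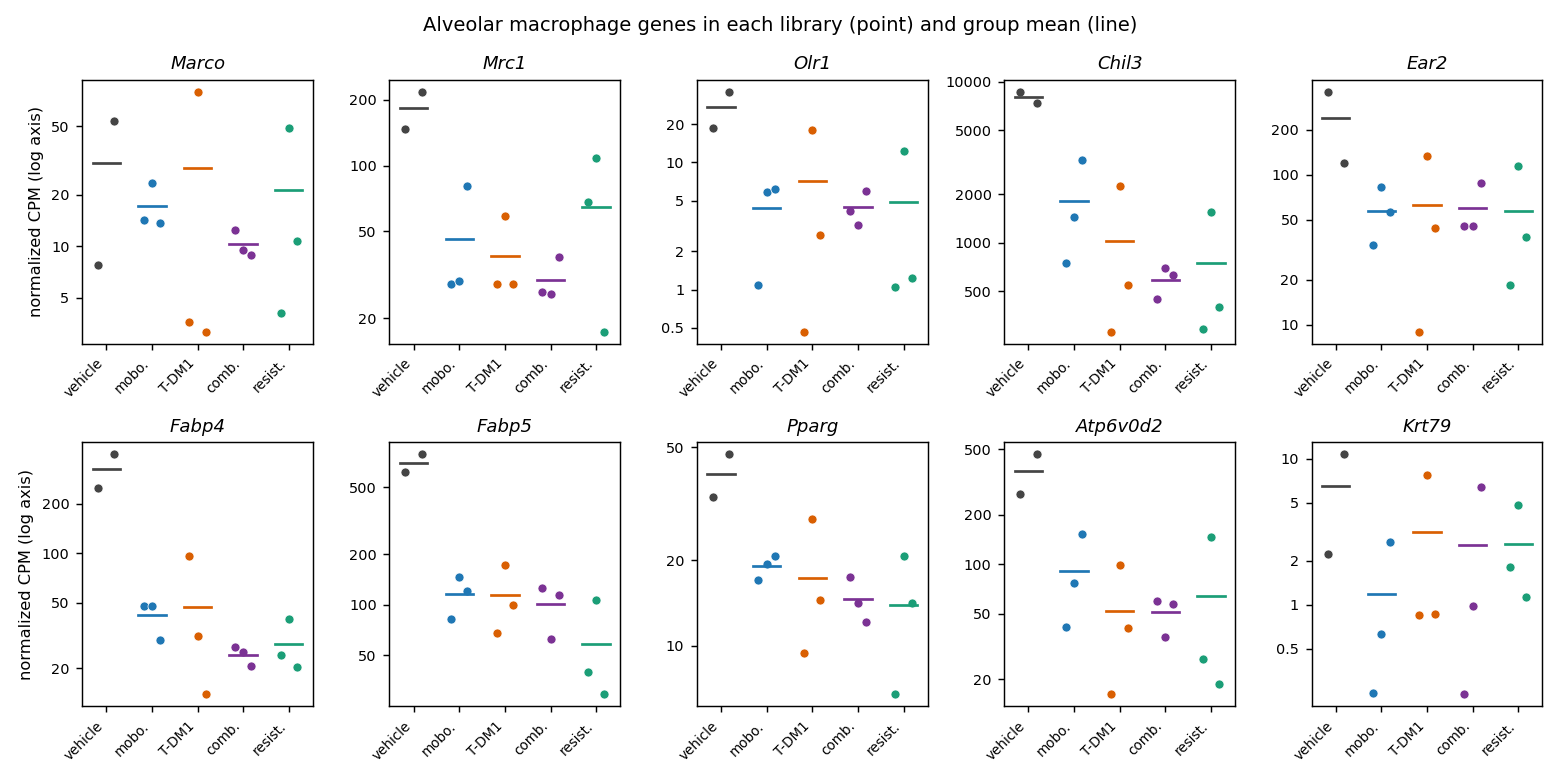
Each panel shows 1 gene as TMM-normalized CPM on a log axis, with 1 point a library and a line at the group mean, for vehicle (2 libraries) and mobocertinib, T-DM1, combination and resistant nodules (3 each). Fabp4, Fabp5, Chil3, Atp6v0d2, Mrc1, Olr1 and Pparg lie above all other libraries in both vehicle libraries, while Marco and Krt79 do not.

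Among the receptors, Marco codes for a scavenger receptor that binds bacteria and particles (chr1:120474538-120505024, minus strand, mm10). Its level was 7.74 and 53.5 CPM in vehicle, 14.1, 23.5 and 13.6 under mobocertinib, and 3.60, 79.5 and 3.18 under T-DM1. It was 12.5, 9.49 and 8.84 CPM in combination and 4.11, 48.7 and 10.8 in resistant nodules. The highest value thus belonged to a treated library, T-DM1 2, and the 2 vehicle libraries differed from each other 6.91-fold. Marco passed the test in none of the 4 comparisons in edgeR (log2 fold changes from −1.57 ± 1.26 SE in combination to −0.09 ± 1.27 under T-DM1). Without T-DM1 2 it was at −3.17 against vehicle (adjusted p = 0.0358), so its T-DM1 value rests on that library. Without vehicle 2 its difference was positive in all 4 comparisons (0.54 to 1.99).

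Mrc1 codes for the mannose receptor CD206, which clears glycoproteins and is also carried by interstitial macrophages (chr2:14229392-14332057, plus strand). Its level was 148 and 218 CPM in vehicle, 28.6, 29.5 and 80.8 under mobocertinib, and 28.6, 58.8 and 28.6 under T-DM1. It was 26.4, 25.8 and 37.9 CPM in combination and 68.0, 108 and 17.3 in resistant nodules. In CPM no treated or resistant library reached vehicle, and resistant nodules came nearest. Mrc1 fell by 1.98 ± 0.63 (SE) on the log2 scale under mobocertinib (adjusted p = 0.0282, edgeR), by 2.24 ± 0.63 under T-DM1 (0.0172) and by 2.61 ± 0.63 in combination (0.00762). In resistant nodules it was at −1.51 ± 0.62 (0.0683), at −2.10 without resistant 2 (0.0279) and at −2.66 in the offset fit (0.00516). Without vehicle 2 it passed in none of the first 3 (adjusted p = 0.171, 0.118 and 0.0622). It did not pass under mobocertinib without mobocertinib 1 (0.0864) or 2 (0.0957), nor under T-DM1 without T-DM1 1 (0.0617) or 3 (0.0636). In the offset fit Mrc1 was at −2.74 (0.00661) under mobocertinib, −2.95 (0.00498) under T-DM1 and −3.34 (0.00265) in combination.

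Olr1 codes for LOX-1, a lectin-like receptor for oxidized low-density lipoprotein (chr6:129485244-129507165, minus strand). Its level was 18.6 and 36.0 CPM in vehicle, 1.10, 5.87 and 6.18 under mobocertinib, and 0.467, 18.2 and 2.71 under T-DM1. It was 4.14, 3.23 and 5.97 CPM in combination and 1.05, 12.2 and 1.24 in resistant nodules. The library T-DM1 2 lay just under vehicle 1, and the 12 libraries spanned 39.0-fold, the widest range of the 10 genes. Olr1 did not pass in edgeR against vehicle (−2.63 ± 1.25, −1.94 ± 1.23, −2.62 ± 1.25 and −2.49 ± 1.25, adjusted p = 0.122, 0.242, 0.122 and 0.125). It passed without T-DM1 2 (−4.10, 0.0316) and without resistant 2 (−4.57, 0.0209).

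Pparg codes for the nuclear receptor at the center of the alveolar macrophage program (chr6:115360951-115490399, plus strand). Its level was 33.6 and 47.3 CPM in vehicle, 17.0, 19.4 and 20.8 under mobocertinib, and 9.42, 28.0 and 14.5 under T-DM1. It was 17.5, 14.1 and 12.2 CPM in combination and 6.73, 20.8 and 14.1 in resistant nodules. In CPM all 12 libraries lay below both vehicle libraries, over the narrowest range among the members (4.16-fold). Pparg fell by 1.47 ± 0.46 (SE) on the log2 scale in combination (adjusted p = 0.0254, edgeR) and by 1.54 ± 0.46 in resistant nodules (0.0175). Under mobocertinib and T-DM1 it was at −1.08 ± 0.46 (0.0854) and −1.22 ± 0.46 (0.0579), and at −1.75 under T-DM1 without T-DM1 2 (0.0129). Neither call remained without vehicle 2 (0.183 and 0.128), and that in combination was also lost without combination 2 (0.0652) or 3 (0.0793). In the deposited TPM values Pparg was not lower (log2 differences of 0.50, 0.20, 0.12 and 0.053), while the median of all genes there was 1.11 to 1.27.

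Fabp4 and Fabp5 code for small proteins that carry fatty acids inside cells, and both lie within one cluster of the family on chromosome 3 (Fabp4 at chr3:10204088-10208576, minus strand, and Fabp5 at chr3:10012548-10016607, plus strand). Fabp4 is a target of PPARG and is also made by fat cells and capillary endothelium. Its level was 249.99 and 398 CPM in vehicle, 47.9, 48.0 and 29.5 under mobocertinib, and 96.6, 31.5 and 13.8 under T-DM1. It was 26.8, 25.1 and 20.5 CPM in combination and 24.1, 39.5 and 20.2 in resistant nodules. In CPM every library other than vehicle was below both vehicle libraries. Fabp4 fell by 2.96 ± 0.60 (SE) under mobocertinib (adjusted p = 0.00299, edgeR), by 2.78 ± 0.59 under T-DM1 (0.00439), by 3.75 ± 0.61 in combination (0.000823) and by 3.54 ± 0.61 in resistant nodules (0.000743), on the log2 scale.

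Fabp5 was at 616 and 788 CPM in vehicle, 81.5, 146 and 120.4 under mobocertinib, and 68.1, 173 and 99.6 under T-DM1. It was at 125, 62.1 and 115 CPM in combination and 39.4, 107 and 29.1 in resistant nodules. Its libraries likewise did not overlap vehicle, and the lowest 2 were resistant. Fabp5 fell by 2.60 ± 0.53 (SE) under mobocertinib (adjusted p = 0.00337, edgeR), by 2.63 ± 0.53 under T-DM1 (0.00340), by 2.80 ± 0.54 in combination (0.00207) and by 3.58 ± 0.55 in resistant nodules (0.000367), on the log2 scale. In the offset fit Fabp4 was at −0.98 (adjusted p = 0.181) under mobocertinib, −0.86 (0.238) under T-DM1, −1.58 (0.0434) in combination and −1.47 (0.0485) in resistant nodules. Fabp5 was there at −1.13 (0.114), −1.17 (0.103), −1.18 (0.0978) and −2.04 (0.0106) in the same order. A part of Fabp5 (41.4% of its transcript) is 98.3% identical to the predicted gene Gm6166.

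The Fabp4 value of 96.6 CPM in T-DM1 1 was the highest outside vehicle, in a library that was the lowest of the 12 for Chil3, Ear2, Atp6v0d2 and Olr1. That library held the most fat cell transcripts: Adipoq (adiponectin) at 26.7 CPM and Plin1 (perilipin of fat droplets) at 8.61 CPM. In the other 13 libraries Adipoq was at most 0.291 CPM and Plin1 at most 0.203 CPM. The summed CPM of the 8 fat cell genes was 307 in T-DM1 1 and 1.32 to 13.4 in the others, the next highest being resistant 1. What fat cells added to Fabp4 in T-DM1 1 was not tested, and Fabp4 was at −3.78 under T-DM1 in the fit without that library. Of 10 endothelial genes, 5 rose and 1 fell under mobocertinib, T-DM1 and combination, and 6 rose and 1 fell in resistant nodules. Of all genes, 16.8%, 16.7%, 17.6% and 22% rose and 16.1%, 14.9%, 17.4% and 19% fell. Cdh5 was among the endothelial genes that rose (3.46 ± 0.60 SE under mobocertinib, adjusted p = 0.00135, edgeR). The 1 that fell each time was Car4, also an alveolar macrophage marker. Gpihbp1, of the same list, was at 94.0 and 223 CPM in vehicle and 32.8 to 120 elsewhere, with 9 libraries below both vehicle libraries. What endothelial cells added to the Fabp4 values was not tested.

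Chil3 codes for Ym1, a secreted chitinase-like lectin that is among the most abundant RNAs of mouse alveolar macrophages (chr3:106147554-106167564, minus strand). Its level was 8669 and 7391 CPM in vehicle, 753, 1437 and 3259 under mobocertinib, and 280.2, 2261 and 544 under T-DM1. It was 444, 698 and 628 CPM in combination and 292, 1561 and 396 in resistant nodules. In CPM both vehicle libraries lay above all others, and combination held the 3 most even values. In TPM, vehicle was at 3413 and 1995, below mobocertinib 3 (3805) and, for vehicle 2, T-DM1 2 (2365). Chil3 fell by 2.97 ± 0.88 (SE) on the log2 scale under T-DM1 (adjusted p = 0.0222, edgeR), by 3.77 ± 0.90 in combination (0.00692) and by 3.42 ± 0.89 in resistant nodules (0.00881). Under mobocertinib it was at −2.14 ± 0.86 (0.0718). The T-DM1 call was lost without vehicle 1 (0.0606), vehicle 2 (0.0695), T-DM1 1 (0.0635) or T-DM1 3 (0.0790), and in the offset fit (−2.35, 0.0614). In the offset fit Chil3 was at −1.40 (0.234) under mobocertinib, −3.06 (0.0225) in combination and −2.81 (0.0270) in resistant nodules.

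Ear2 codes for an eosinophil-associated ribonuclease that mouse alveolar macrophages also make (chr14:44102654-44103534, plus strand). Its level was 359 and 119 CPM in vehicle, 33.8, 82.9 and 56.7 under mobocertinib, and 8.99, 134 and 44.2 under T-DM1. It was 45.6, 45.6 and 88.1 CPM in combination and 18.4, 114 and 38.7 in resistant nodules. Of the 12 libraries, T-DM1 2 alone exceeded the lower vehicle library. Ear2 did not pass in edgeR in any of the 4 comparisons (−2.05 ± 0.91, −1.93 ± 0.91, −2.00 ± 0.91 and −2.07 ± 0.92, adjusted p = 0.103, 0.121, 0.108 and 0.0872). It passed without T-DM1 2 (−3.17, 0.0248) and without resistant 2 (−3.07, 0.0305). In the offset fit Ear2 was at −0.27, −0.082, −0.065 and −0.26 in the 4 comparisons.

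Atp6v0d2 codes for a subunit of the vacuolar proton pump that acidifies lysosomes, made mainly by macrophages and osteoclasts (chr4:19876841-19922605, minus strand). Its level was 269 and 466 CPM in vehicle, 41.6, 76.9 and 153 under mobocertinib, and 16.2, 99.4 and 40.9 under T-DM1. It was 59.9, 36.2 and 57.1 CPM in combination and 26.7, 146 and 18.7 in resistant nodules. It showed no overlap with vehicle in CPM. In TPM, vehicle was at 53.7 and 64.2, below mobocertinib 3 (93.1) and resistant 2 (78.9). Atp6v0d2 fell by 2.81 ± 0.87 (SE) on the log2 scale under T-DM1 (adjusted p = 0.0270, edgeR), by 2.85 ± 0.87 in combination (0.0235) and by 2.53 ± 0.86 in resistant nodules (0.0330), and was at −2.02 ± 0.85 under mobocertinib (0.0856). In the offset fit it was at −1.68 (0.131), −2.52 (0.0372), −2.51 (0.0360) and −2.62 (0.0260), with mobocertinib first and the others in this order. Each of these 3 calls was lost without vehicle 2 (0.147, 0.134 and 0.163). The T-DM1 call was also lost without T-DM1 1 (0.0729) or 3 (0.0842), the combination call without combination 1 (0.0572), 2 (0.0716) or 3 (0.0567), and the resistant call without resistant 1 (0.0917) or 3 (0.0855).

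Krt79 codes for a keratin of skin and hair follicle openings whose transcript is also a mouse alveolar macrophage marker (chr15:101929332-101940324, minus strand). Its counts were low in some libraries, from 5 in mobocertinib 1 to 249 in T-DM1 2, with 37 and 144 in vehicle. Its level was 2.22 and 10.7 CPM in vehicle, 0.249, 0.627 and 2.70 under mobocertinib, and 0.848, 7.71 and 0.864 under T-DM1. It was 0.244, 0.984 and 6.41 CPM in combination and 1.82, 4.86 and 1.13 in resistant nodules. Libraries of every group overlapped vehicle, and Krt79 passed in none of the comparisons in edgeR (−2.42 ± 1.36, −1.03 ± 1.34, −1.34 ± 1.34 and −1.31 ± 1.34, adjusted p = 0.187, 0.575, 0.458 and 0.453). Keratin genes of basal and skin cells were present too, with Krt5 at 1.24 to 318 CPM and Krt14 at 0.823 to 151 CPM, and their part in Krt79 was not tested.

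**Figure D2:**
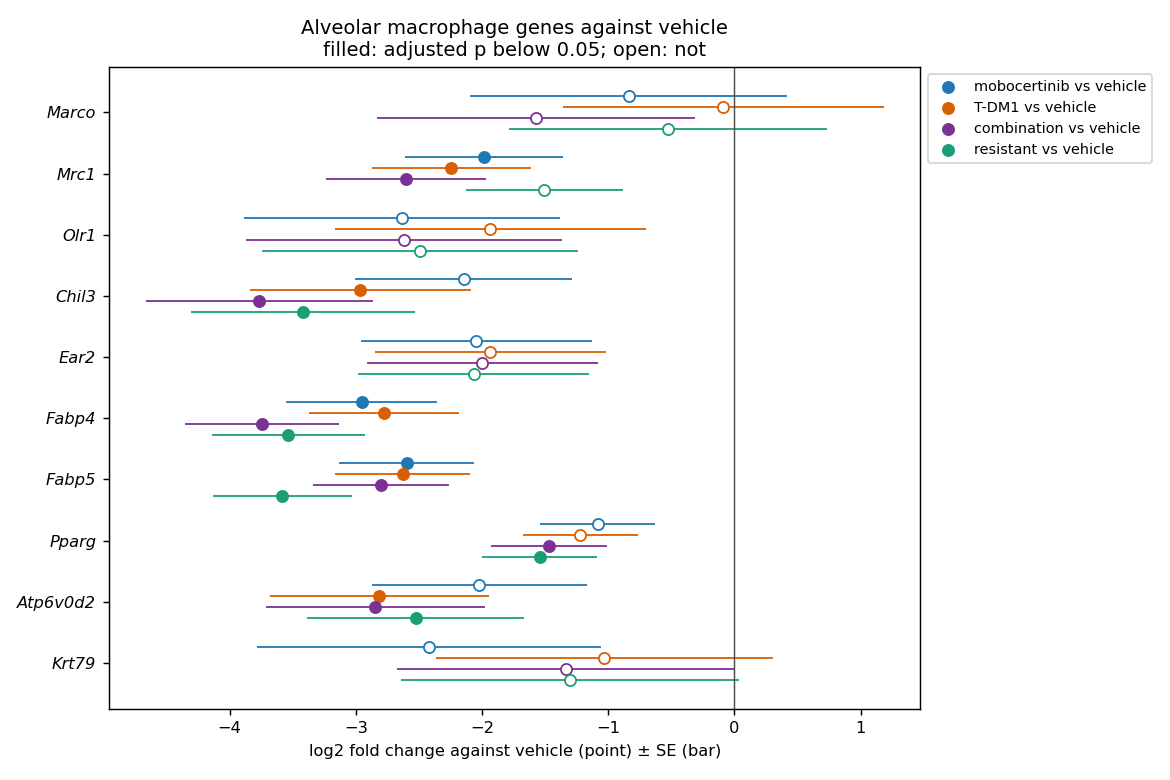
Points give each gene's log2 fold change against vehicle and bars its SE, in 4 comparisons shown by color, with filled points for an adjusted p below 0.05. Fabp4 and Fabp5 are filled in all 4 comparisons, and Marco, Olr1, Ear2 and Krt79 are open in all 4.

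Between the 4 groups other than vehicle, no member passed. In edgeR's F-test of any difference among those groups, 0 of 10 members were called, where 0.0279% of genes were. The pairwise counts were 0 of 10 for T-DM1 against mobocertinib (0.0279% of genes called), combination against mobocertinib (0%), combination against T-DM1 (0%), resistant against mobocertinib (0.00558%), resistant against T-DM1 (0%) and resistant against combination (0.00558%). In each of these tests 0 members had an unadjusted p below 0.05, and DESeq2 and limma-voom also called 0. With 3 libraries a group, that does not show that levels were alike. In combination against mobocertinib, Chil3 (−1.62 ± 0.79 SE, unadjusted p = 0.0617, adjusted p = 1), Fabp4 (−0.79 ± 0.53, 0.160) and Marco (−0.74 ± 1.15, 0.533) were lower with no overlap of libraries, 3 of 10 members where 3.21% of all genes were, and the members' median was −0.50. In resistant against mobocertinib nodules, Fabp5 was at −0.98 ± 0.48 (unadjusted p = 0.0618, adjusted p = 0.622) with overlapping libraries.

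Within groups, the members tended to be high or low in the same libraries. Among the 12 libraries other than vehicle, T-DM1 2 was the highest for 6 members (Marco, Olr1, Pparg, Fabp5, Ear2 and Krt79), and mobocertinib 3 for Chil3 and Atp6v0d2. Resistant 2 was among the top 3 for 8 members, and resistant 1 among the bottom 3 for 7. The group called resistant was thus split, with summed CPM of the 10 members of 482, 2162 and 548. T-DM1 was split as well, at 513, 2891 and 792, while mobocertinib had 1019, 1869 and 3743 and combination had 763, 921 and 979.7. The libraries with the lowest sums, resistant 1 and T-DM1 1, had the highest summed CPM of 8 B cell genes (15437 and 10410). In the other libraries the B cell genes summed to 66.0 to 1163 CPM. What such differences in tissue content added to the split was not tested.

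Likeness was measured as Pearson's r between a member's log2 CPM and the mean z-score of the other 9, as a description, since libraries share groups and RNA makeup. Over 14 libraries r was highest for Atp6v0d2 (0.96), Chil3 (0.94), Olr1 (0.93), Pparg (0.89) and Fabp5 (0.88), then Ear2 and Mrc1 (0.81 each), and lowest for Marco (0.62), Fabp4 (0.61) and Krt79 (0.60). Over the 12 libraries without vehicle, Atp6v0d2 (0.91), Olr1 (0.89) and Chil3 (0.89) still led. Marco ranked higher there, at 0.82, and Mrc1 was at 0.55 and Krt79 at 0.48. Fabp4 was at −0.050 over those 12, and at 0.43 over the 11 left without T-DM1 1. Spearman's rho over the 12 was 0.94 for Atp6v0d2, 0.88 for Chil3 and Olr1, 0.77 for Marco and 0.17 for Fabp4.

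**Figure D3:**
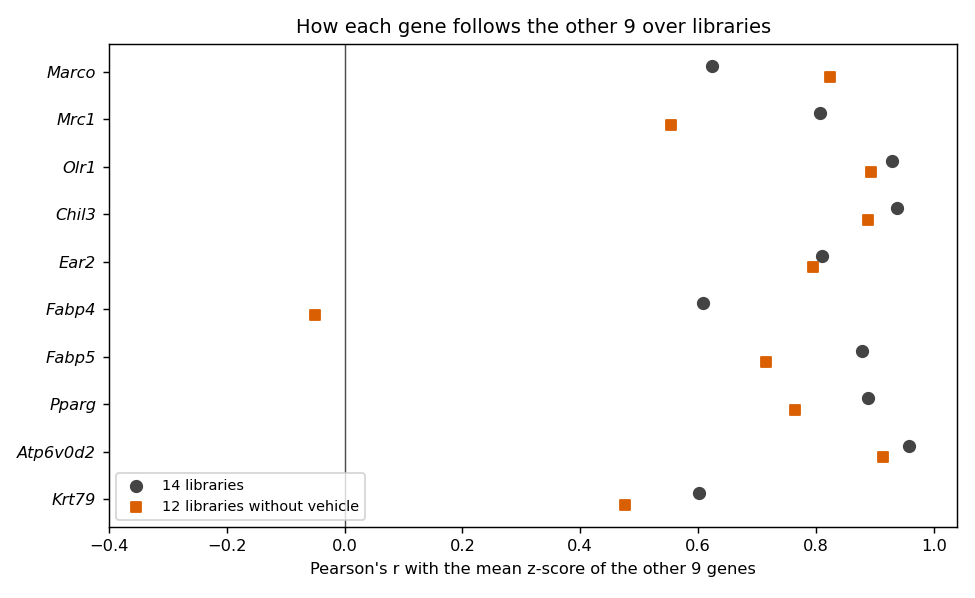
For each gene, a circle gives Pearson's r with the mean z-score of the other 9 genes over 14 libraries, and a square the same over the 12 libraries without vehicle. Atp6v0d2, Olr1 and Chil3 are at 0.89 or above on both, and Fabp4 drops from 0.61 to −0.050.

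The genes outside the list whose log2 CPM followed the members most closely over 14 libraries were Tinag (r = 0.98), Mcoln3, Ccl6, Lrp12 (0.97 each), Sftpc, Tmem243, Sfta2, Adk (0.96 each), Lpcat1 and Gsap (0.95 each). They were picked by that r among genes with r of at least 0.5 over the 12 libraries without vehicle. Predicted genes, Rik clone names and pseudogenes were left out. Over those 12, which are part of the 14, their r was 0.90 to 0.97, which is not a separate check. Ccl6, a chemokine gene of macrophages, was at 6741 and 9962 CPM in vehicle and 113 to 899 elsewhere. Mcoln3, which codes for a cation channel of endosomes and lysosomes, was at 20.0 and 59.2 CPM in vehicle and 1.27 to 14.3 elsewhere. Of these 10, Sftpc, Sfta2 and Lpcat1 belong to the surfactant system of alveolar type 2 cells.

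Genes of type 2 cells ran with the members. Over the 12 libraries without vehicle, r between the member score and the mean z-score of 10 type 2 cell genes was 0.94 (rho 0.93), with 22 other alveolar macrophage markers 0.92, and with 17 lipid handling genes 0.80. With the 12 genes shared by all macrophages it was 0.53, and with 12 genes of interstitial macrophages −0.15. Without the 2 libraries farthest from the median these were 0.87, 0.96, 0.75, 0.19 and −0.17, so that the value for the genes of all macrophages rests on those 2. Sftpc, the surfactant protein C gene, was at 116691 and 185948 CPM in vehicle and 2871 to 46306 elsewhere, highest in T-DM1 2. Sftpa1 (4725 and 8238 CPM in vehicle, 976 to 8731 elsewhere) and Lamp3 (1018 and 509, 47.0 to 1765 elsewhere) overlapped vehicle. Both were highest in resistant 2. Against vehicle, 1, 1, 2 and 1 of the 10 genes fell in the 4 comparisons and 0 rose. Of all genes, 16.1%, 14.9%, 17.4% and 19% fell. Every library of the group lay below both vehicle libraries for 5, 1, 10 and 4 of the 10. Of all genes, 28.3%, 26%, 29.9% and 25.6% did so. The summed CPM of the type 2 list was 10120 to 80391 in the 12 libraries, and Sftpc, its defining marker, was at 0 in none. With the type 2 score as a covariate, chosen after seeing these values, 2, 4, 4 and 5 members were called in the 4 comparisons with vehicle, all lower, with medians of −0.90, −1.35, −0.95 and −0.96. Of all genes 13.3%, 12.1%, 12.6% and 16.7% were then called lower. Of the variance of the type 2 score, 32% lay between groups.

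**Figure D4:**
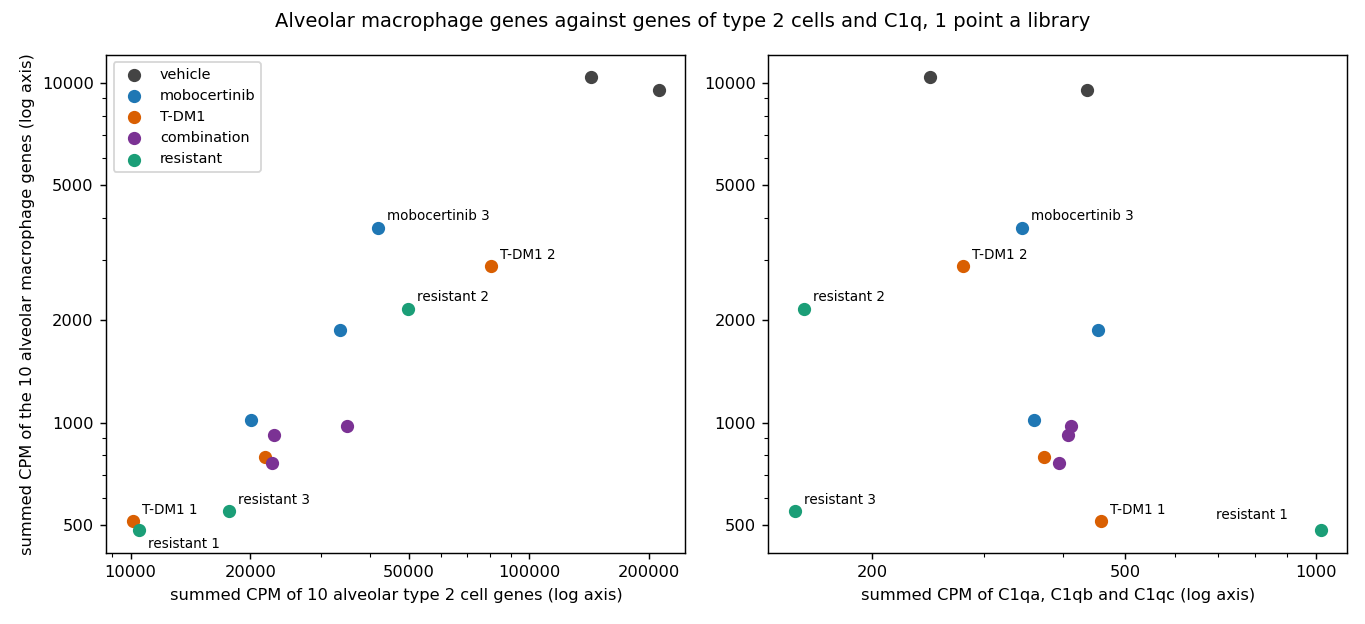
Each point is 1 library, colored by group. The summed CPM of the 10 alveolar macrophage genes is on the vertical log axis, against the summed CPM of 10 alveolar type 2 cell genes (left) and of C1qa, C1qb and C1qc (right), both on log axes. On the left the libraries line up from T-DM1 1 and resistant 1 to vehicle, and on the right resistant 1 has the highest C1q (1019) with the lowest member sum (482).

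Other macrophage genes did not all go with the members. C1qa, a complement gene of interstitial and tumor macrophages, was at 98.1 and 206 CPM in vehicle and 51.8 to 382 elsewhere, and passed against vehicle in no comparison in edgeR (log2 fold changes −0.20 to 0.11, adjusted p = 0.842, 0.874, 0.932 and 0.907). Csf1r, the receptor of the macrophage growth factor M-CSF, was at 34.5 and 34.8 CPM in vehicle and 24.9 to 201 elsewhere. Resistant 1, in the bottom 3 for 7 members, was the highest of all 14 libraries for both (382 CPM of C1qa and 201 CPM of Csf1r). Of the interstitial list, 2 rose and 1 fell under mobocertinib and in resistant nodules, and 1 rose and 1 fell under T-DM1 and in combination. Of all genes, 16.8%, 16.7%, 17.6% and 22% rose and 16.1%, 14.9%, 17.4% and 19% fell, with mobocertinib first and resistant last. Counts of 1 or 2 in a list of this size are close to those shares. The medians of the interstitial list were 0.64, 0.34, 0.43 and 0.96. Pf4, the platelet factor 4 gene, was the 1 that fell each time (−6.03 ± 0.96 SE under mobocertinib, adjusted p = 0.000881), and Lyve1, the hyaluronan receptor gene, rose each time (5.09 ± 1.03 in resistant nodules, adjusted p = 0.00216).

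Of the 12 genes shared by all macrophages, 5, 4, 5 and 5 fell in the 4 comparisons and 0 rose, with medians of −1.49, −0.70, −1.10 and −1.33. Of all genes, 16.1%, 14.9%, 17.4% and 19% fell and 16.8%, 16.7%, 17.6% and 22% rose. Cd68, a lysosomal membrane gene, was at 219 and 503 CPM in vehicle and 28.3 to 157 elsewhere. Adgre1, the F4/80 gene, was at 27.5 and 18.5 CPM in vehicle and 7.51 to 46.1 elsewhere, overlapping in every group. The summed CPM of this list was 27852 and 29983 in vehicle and 2237 to 16127 elsewhere, of which Lyz2, also made by type 2 cells, gave 39.5% to 87.1%. Leaving out Lyz2 and Chil3, members per 100 CPM of pan-macrophage genes were 36.7 and 29.9 in vehicle and 7.09 to 29.0 in the other 12. Resistant 2 was at 29.0, just under vehicle 2, and the next was T-DM1 2 at 16.7. With Lyz2 kept in the list, members without Chil3 per 100 CPM were 6.12 and 7.12 in vehicle and 3.62 to 6.77 elsewhere, with resistant 3 (6.77) above vehicle 1. With the pan-macrophage score as a covariate, 2 members were called in each comparison with vehicle, with medians over the 10 of −0.85, −1.47, −1.31 and −0.63, where 10.8%, 11%, 11.3% and 10.7% of all genes were called lower. Of the variance of that score 49.4% lay between groups, and Lyz2 is part of it. That fit therefore does not show the members at equal macrophage content. Of 9 tumor-associated macrophage genes 5, 4, 5 and 7 fell and 0 rose, where 16.1%, 14.9%, 17.4% and 19% of all genes fell. Arg1 was among the genes that fell in all but T-DM1 (−3.49 ± 0.68 SE in resistant nodules, adjusted p = 0.00163, edgeR).

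The further alveolar macrophage markers shared the direction in part. Of 22, 8 fell and 1 rose under mobocertinib, and 5 fell and 0 rose under T-DM1. In combination 8 fell and 2 rose, and in resistant nodules 11 fell and 1 rose. Of all genes, 16.1%, 14.9%, 17.4% and 19% fell and 16.8%, 16.7%, 17.6% and 22% rose. The medians of the 22 were −1.06, −0.80, −1.42 and −1.10. Car4, a membrane carbonic anhydrase gene that capillary endothelium also uses, was at 239 and 232 CPM in vehicle and 4.41 to 70.4 elsewhere. It fell in all 4 comparisons, at −4.20 ± 1.03 (SE) on the log2 scale under mobocertinib (adjusted p = 0.00916, edgeR), −3.002 ± 0.99 under T-DM1 (0.0362), −4.50 ± 1.05 in combination (0.00632) and −3.10 ± 0.99 in resistant nodules (0.0256). Itgax, the CD11c gene, was at 213 and 515 CPM in vehicle and 20.0 to 123 elsewhere, and fell in all 4. Siglecf, the sialic acid lectin by which mouse alveolar macrophages are sorted, was at 34.8 and 10.996 CPM in vehicle and 1.44 to 31.7 elsewhere. It overlapped in every group and passed in none (−1.08, −0.74, −1.05 and −1.87, adjusted p = 0.406, 0.582, 0.416 and 0.139), with its highest treated value in T-DM1 2, as for Marco.

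Upstream of PPARG, the gene of GM-CSF itself was far higher in vehicle. Csf2 was at 33.1 and 31.3 CPM there, at 0.399, 0.923 and 0.782 under mobocertinib and at 0.339, 2.23 and 1.89 under T-DM1. It was at 0.528, 0.354 and 0 in combination, where 3 counts would give 0.110 CPM in the library with none, and at 0.618, 3.78 and 0.360 in resistant nodules. Every treated or resistant library lay far below both vehicle libraries. Csf2 fell in all 4 comparisons, with log2 fold changes of −5.50 ± 1.18 (SE) under mobocertinib (adjusted p = 0.00420, edgeR), −4.43 ± 1.12 under T-DM1 (0.0107), −6.76 ± 1.26 in combination (0.00174) and −4.34 ± 1.12 in resistant nodules (0.00853).

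The receptor genes differed less. Csf2ra, the ligand-binding chain, was at 77.2 and 24.1 CPM in vehicle and 13.7 to 61.0 elsewhere, and passed in none (adjusted p = 0.595, 0.479, 0.465 and 0.184). Csf2rb, the shared signaling chain, was at 83.4 and 161 CPM in vehicle and 13.5 to 122 elsewhere. It fell by 1.38 ± 0.49 (SE) in combination (adjusted p = 0.0445, edgeR) and by 1.83 ± 0.49 in resistant nodules (0.0110). Of the 20 genes of the GM-CSF, TGF-beta and PPARG axis, 4 fell and 2 rose under mobocertinib and 3 fell and 5 rose under T-DM1. In combination 4 fell and 2 rose, and in resistant nodules 6 fell and 2 rose. Of all genes, 16.1%, 14.9%, 17.4% and 19% fell and 16.8%, 16.7%, 17.6% and 22% rose. Most counts of the axis list were not far from those shares. Its medians were −0.51, −0.33, −0.54 and −0.68. Rxra, the partner of PPARG in its dimer, was among the axis genes that rose each time (1.43 ± 0.36 SE under mobocertinib, adjusted p = 0.00970, edgeR). Nr1h3, the liver X receptor gene, was among those that fell (−1.76 ± 0.40, 0.00536).

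**Figure D5:**
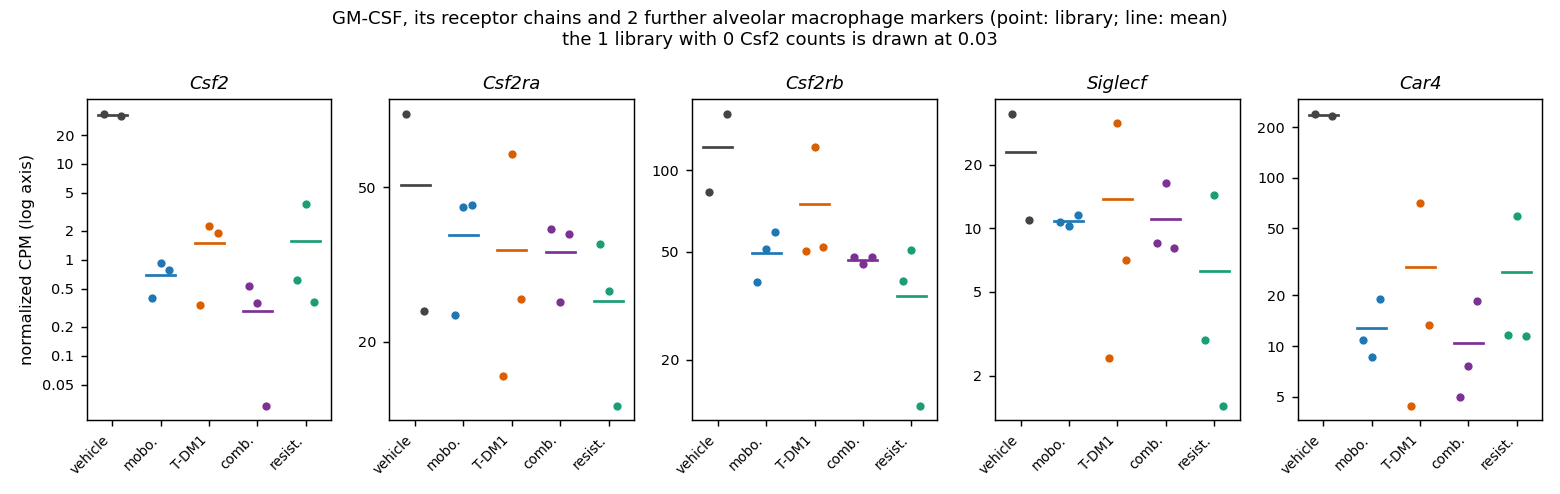
Each panel shows TMM-normalized CPM on a log axis, with 1 point a library and a line at the group mean, for Csf2, Csf2ra, Csf2rb, Siglecf and Car4. Both vehicle libraries exceed the other 12 for Csf2 and Car4, and overlap them for Csf2ra, Csf2rb and Siglecf, and the 1 library without Csf2 counts is drawn at 0.03.

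Lipid handling genes linked to PPARG were called in both directions. Of 17, 3 rose and 1 fell under mobocertinib and T-DM1, 3 rose and 3 fell in combination, and 4 rose and 3 fell in resistant nodules. Of all genes, 16.8%, 16.7%, 17.6% and 22% rose and 16.1%, 14.9%, 17.4% and 19% fell. The counts that rose were thus close to the shares of all genes. The medians of the list were −0.33, 0.14, 0.06 and −0.02. Abca1, the cholesterol exporter gene, was at 9.24 and 6.46 CPM in vehicle and 60.3 to 213 elsewhere, with no overlap. It rose by 4.44 ± 0.34 (SE) on the log2 scale under mobocertinib (adjusted p = 7.06e-05, edgeR), 3.43 ± 0.32 under T-DM1 (0.000214), 4.62 ± 0.34 in combination (4.84e-05) and 3.63 ± 0.32 in resistant nodules (5.91e-05). Pdk4 and Cpt1a, which favor the burning of fatty acids, also rose in all 4 (Pdk4 by 3.70 ± 0.59 under mobocertinib, adjusted p = 0.000862). Npc2 (11249 and 10254 CPM in vehicle, 1488 to 5081 elsewhere) and Fabp1 (14.2 and 18.2, 0.109 to 11.5 elsewhere) were lower in all 12 other libraries. Lipid handling genes are used by many cell types, and the members Fabp4 and Fabp5 were also lower. What the RNA makeup of vehicle added to these differences was not tested.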

How the data were processed

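RNA was measured in 14 libraries of lung tumor nodules. The authors deposited a table of whole-number counts for 55291 genes and a table of TPM values, adjusted by them for length and library size. STAR and RSEM with build mm10 are named in the submitters' processing notes, without roles or versions, and strand handling and annotation were not given in the sources used here. Groups came from the treatment labels. Counts were fitted with edgeR 4.0.16 in R 4.3.3 (TMM, filterByExpr by group, robust quasi-likelihood F-test, 5 group means, 9 residual degrees of freedom), with Benjamini-Hochberg adjustment over 17933 genes. The script was tested on simulated data. Positions came from the GENCODE annotation of mm10, promoters from RefSeq.

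The members and lists were chosen with earlier results of these data known. All 10 members were described whatever their p, other lists by counts and, apart from genes named after their values were seen, up to 3 genes. Those were Lyve1, Pf4, Rxra, Nr1h3, Lyz2, C1qb, C1qc, Sftpa1, Lamp3, Npc2, Fabp1, the paralogs of Chil3 and Ear2 and the genes that changed in several comparisons. Alternatives were DESeq2 1.42.0, limma-voom and limma-trend on log2(TPM + 1) (limma 3.58.1, at least 1 TPM in 2 libraries), other scaling, filters, thresholds, covariates, offsets and leaving out each library. Monocyte, neutrophil, dendritic, eosinophil, T, B and keratinocyte lists are described in the closing section.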

Additional observations from a re-analysis of the deposited data

How the results depend on the processing

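Members called against vehicle numbered 3 (mobocertinib), 5 (T-DM1), 6 (combination) and 5 (resistant). They numbered 0, 2, 1 and 2 with limma-trend on TPM, 6, 6, 6 and 7 with DESeq2, 3, 7, 6 and 7 with limma-voom, 1, 2, 5 and 6 with length and GC offsets, and 8, 3, 8 and 3 fitting only the groups compared. They numbered 2, 2, 4 and 3 by library totals alone, 2, 2, 5 and 4 with no filter beyond 1 count, and 2, 2, 2 and 2 with the pan-macrophage score as a covariate. Leaving out 1 library gave 2 to 3, 2 to 9, 3 to 6 and 3 to 8. T-DM1 numbered 9 without T-DM1 2 and 2 without vehicle 2, T-DM1 1 or T-DM1 3, combination 3 without vehicle 2, and resistant 8 without resistant 2 and 3 without vehicle 2. All calls were lower. Of all genes, the shares called lower in the 4 comparisons were 18.1%, 16.8%, 18.6% and 19.5% with DESeq2, 16.7%, 15.7%, 17.6% and 19.9% with limma-voom, and 13.1%, 13.4%, 13.9% and 15.8% with length and GC offsets. They were 14.3%, 11.8%, 19.2% and 10.1% fitting only the groups compared, 6.45%, 6.31%, 7.17% and 8.93% with no filter, and 10.8%, 11%, 11.3% and 10.7% with the pan-macrophage covariate. Calls between the other groups stayed at 0 in every alternative run. Scaling by library totals moved the median of all genes to 0.93, 0.97, 0.92 and 1.01, with 6.09%, 6.25%, 6.96% and 9.06% of genes called lower. From TPM it was 1.11, 1.17, 1.18 and 1.27, with 3.06%, 3.51%, 3.37% and 4.79% called lower. Chosen after seeing the data were library totals, the type 2 covariate, Fabp4 without T-DM1 1, and the count without Chil3 and Ear2 (3, 4, 5 and 4).

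Of 760 refits of a member's fold change, 613 kept direction and side of the threshold, 79 lost and 28 gained the threshold, and 40 turned positive, none of these called. Marco under mobocertinib was at 0.15 by library totals, 1.20 from TPM, 1.08 with the pan-macrophage covariate, 1.07 with the type 2 covariate and 1.26 without vehicle 2. Under T-DM1 it was at 0.80, 0.62, 0.90, 0.42 and 1.99 in that order, 0.083 with no filter, 0.49 without T-DM1 1 and 0.44 without T-DM1 3. In combination it was at 0.64 (TPM), 0.35 and 0.56 (covariates) and 0.54 (without vehicle 2). In resistant nodules it was at 0.40, 1.06, 2.46, 0.70 and 1.51, and 0.047 with length and GC offsets. The lowest values of Marco with 1 library left out were −1.61, −3.17, −2.35 and −2.04 in the 4 comparisons. Krt79 was at 0.21 from TPM, 0.33 with the pan-macrophage covariate and 0.60 without vehicle 2 under T-DM1. It was at 0.88 and 0.25 (covariates) and 0.34 (without vehicle 2) in combination, and at 0.16 (TPM), 2.13 and 0.15 (covariates) and 0.30 (without vehicle 2) in resistant nodules, and lowest with 1 library left out at −2.91, −3.32 and −2.12 in these 3 comparisons. From TPM, Pparg was at 0.50, 0.20, 0.12 and 0.053 in the 4 comparisons and Ear2 at 0.22 in combination. With the pan-macrophage covariate, Mrc1 was at 0.20 and Olr1 at 1.02 in resistant nodules. The likeness of Fabp4 turned to −0.050 without vehicle. The cause of these changes was not tested.

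No paired analysis was possible because the labels give no replicate numbers shared between groups. With 2 vehicle libraries, every comparison with vehicle rests on their spread, and low counts in some libraries limit Krt79 (5 to 249) and Olr1 (11 to 587).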

Other observations

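Paralogs of the uncertain members did not share one pattern. Ear6 was at 21.3 and 58.4 CPM in vehicle and 0.433 to 2.82 elsewhere, and fell in all 4 comparisons with vehicle (−5.01 ± 0.90 SE under mobocertinib, adjusted p = 0.00162, edgeR). Ear1 was at 11.7 and 4.09 CPM in vehicle and 0.679 to 19.4 elsewhere. Ear10 was at 0.0600 and 0 CPM in vehicle and 0 to 8.07 elsewhere, with its highest value in combination 3. Chil4 was at 34.3 and 12.2 CPM in vehicle and 6.38 to 131 elsewhere, with its highest value in T-DM1 1, the library lowest for Chil3. Ear1 and Chil4 passed in none of the 4 comparisons. How reads were shared between these copies was not tested.

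Lists of markers of other cell types are given as counts that fell and rose against vehicle under mobocertinib, T-DM1, combination and in resistant nodules. Of all genes, 16.1%, 14.9%, 17.4% and 19% fell and 16.8%, 16.7%, 17.6% and 22% rose in that order. Counts of 1 or 2 in lists of this size are close to those shares. Of 10 neutrophil genes 4, 2, 2 and 7 fell and 0 rose. Of 10 dendritic cell genes 3, 2, 2 and 2 fell, and 1 rose in resistant nodules. Of 10 monocyte genes 2, 1, 2 and 2 fell and 1 rose each time. Of 9 keratinocyte and sebaceous genes 3, 2, 2 and 5 fell and 0 rose. Of 9 T and NK cell genes tested, 2 rose and 0 fell each time. Of 8 B cell genes 1 rose each time and 1 fell under mobocertinib. Of 7 eosinophil and mast cell genes tested 1 rose and 0 fell each time. Of 4 fat cell genes tested 0 were called in edgeR, and 0, 1, 0 and 0 had an unadjusted p below 0.05. Of 10 type 2 cell genes 1, 1, 2 and 1 fell and 0 rose, and of 10 lung epithelium genes 3, 2, 3 and 3 rose and 0 fell.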
